A study of Mus musculus with 17 samples.

Results

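The 44 non-muscle cytoskeletal genes described here are the actins and the proteins that bind, branch, cap, bundle and anchor actin filaments, together with vimentin, the intermediate filament protein of macrophages. They come from a list of gene symbols, drawn up with earlier results of these data known but with no measured value in its rule, and make up 44 of the 37620 gene IDs in the deposited matrix. All 44 had a row there, and 43 reached a TPM of 1 (TPM is a transcript abundance corrected for gene length and scaled to 1 library total) in at least 3 of the 17 libraries. Fscn1, which encodes the bundling protein fascin, was listed at 0 in all 17 libraries and was not tested.

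Macrophages were grown from bone marrow of C57BL/6J mice for 7 days in macrophage colony-stimulating factor (M-CSF, 50 ng/ml), and transforming growth factor beta 1 (TGF-β1) was given at 5 ng/ml for 5 days. RNA sequencing libraries made by the SMART-seq2 protocol fell into 4 groups by their titles: 5 wild-type control, 4 wild-type TGF-β1, 5 Smad3-knockout control and 3 Smad3-knockout TGF-β1 libraries. Smad3 is one of the factors that TGF-β receptors activate and that then switch target genes on or off, and the study asked about the passage of macrophages to myofibroblasts, contractile cells rich in smooth muscle actin. The treatment text on the controls is the same as on the treated samples, and the sources used here do not give the age of the mice or how the knockout was made. The design text also mentions sorts of cells negative and positive for smooth muscle actin. No label assigns a library to a sort, so sort and treatment cannot be told apart in the differences below. The sources leave unclear whether each library came from a single cell or a population, and they name no animal or culture. The p-values thus rest on the spread of libraries within a group alone, and that spread may be technical.

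The actin cytoskeleton is built from monomers that assemble into filaments at one end and fall away at the other. Thymosins hold monomers in reserve, profilin delivers them to growing ends, the Arp2/3 complex starts side branches, capping proteins stop growth, and cofilin breaks old filaments. Macrophages depend on this cycle for crawling, for engulfing particles and for the podosomes with which they adhere, and they lack the ordered stress fibres of a contractile cell.

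Of 10 macrophage markers, 8, among them Adgre1 and Csf1r, were at TPM 1 or more in every library. Fcgr1 reached it in 16 libraries and Mertk in 6. With TGF-β1 the means of Adgre1, Csf1r, Lyz2, Fcer1g and Cd14 were higher under both genotype labels, and those of Cd68, Fcgr1 and Mertk were lower. Mean Csf1r was 367 TPM in wild-type controls and 854 TPM with TGF-β1, and 340 and 842 TPM under the knockout label. Mean Adgre1 was 133 and 399 TPM in wild type, and 180 and 245 TPM under the knockout label. Of 8 fibroblast markers 6 were at 0 throughout and the summed level was at most 9.72 TPM, and all 6 lymphocyte markers were at 0. S100a8 was the only one of 7 neutrophil markers at TPM 1 or more in any library. S100a9 was listed at 0 in every library, also where S100a8 reached 132 TPM. Without read counts a value of 0 does not show that a transcript was absent, so markers at 0 do not show that other cells were absent. The summed neutrophil level was 0 to 132 TPM in wild-type controls, 0 to 34.6 TPM in controls labelled knockout and 0 in all 7 treated libraries. Of 4 endothelial markers only Kdr reached TPM 1, with a summed level of 10.2 ± 11.7 TPM in wild-type controls (SD, n = 5) and 3.09 ± 4.74 TPM with TGF-β1 (n = 4), and of 15.5 ± 11.5 and 1.51 ± 2.62 TPM under the knockout label (n = 5 and 3). Both means were thus lower in the treated groups, but each level came from 1 gene and varied widely between libraries. Wild-type control 4 held 132 TPM of S100a8, and no other wild-type control more than 0.14 TPM. Kdr overlapped, at 0 to 25.6 TPM in wild-type controls and 0 to 10.0 TPM with TGF-β1. The part of these marker levels in the differences below was not tested. Acta2, the smooth muscle actin, was at 22.5 TPM in wild-type TGF-β1 library 3 and 8.12 TPM in knockout control library 1, and at most 0.12 TPM in the other libraries. Smad3 itself went against the genotype labels. It was listed at 0 in every one of the 4 treated wild-type libraries, at 0 to 15.4 TPM in wild-type controls, at 0 to 1.93 TPM in controls labelled knockout and at 0.01 to 22.3 TPM in TGF-β1 libraries labelled knockout. The reads behind these values were not analysed here, so whether the deleted part of the gene was covered is not known, and the knockout groups are named below only by their label. Sequencing depth cannot be read from TPM and is unknown here; 7269 to 10307 genes reached TPM 1. In 6 libraries (wild-type control 3, 4 and 5, wild-type TGF-β1 3, knockout control 2 and knockout TGF-β1 2), over 10% of moderate genes, those averaging 10 to 50 TPM across the rest of the group, were listed at 0.

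Together the 44 genes held 5.11 ± 0.62% of all TPM in wild-type controls (SD, n = 5), 5.60 ± 0.18% with TGF-β1 (n = 4), 4.96 ± 0.95% in controls labelled knockout (n = 5) and 5.51 ± 0.78% with TGF-β1 under that label (n = 3). Their levels covered a wide scale. Mean TPM over the 17 libraries was 1000 or more for 10 genes, 100 to 1000 for 22, 10 to 100 for 10 and under 10 for 2. Actb ranked 5th and Tmsb4x 7th of all genes in the matrix, and 10 of the 44 were among the 100 most abundant genes. The 44 genes include 40 that were at TPM 1 or more in every library.

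**Figure D1:**
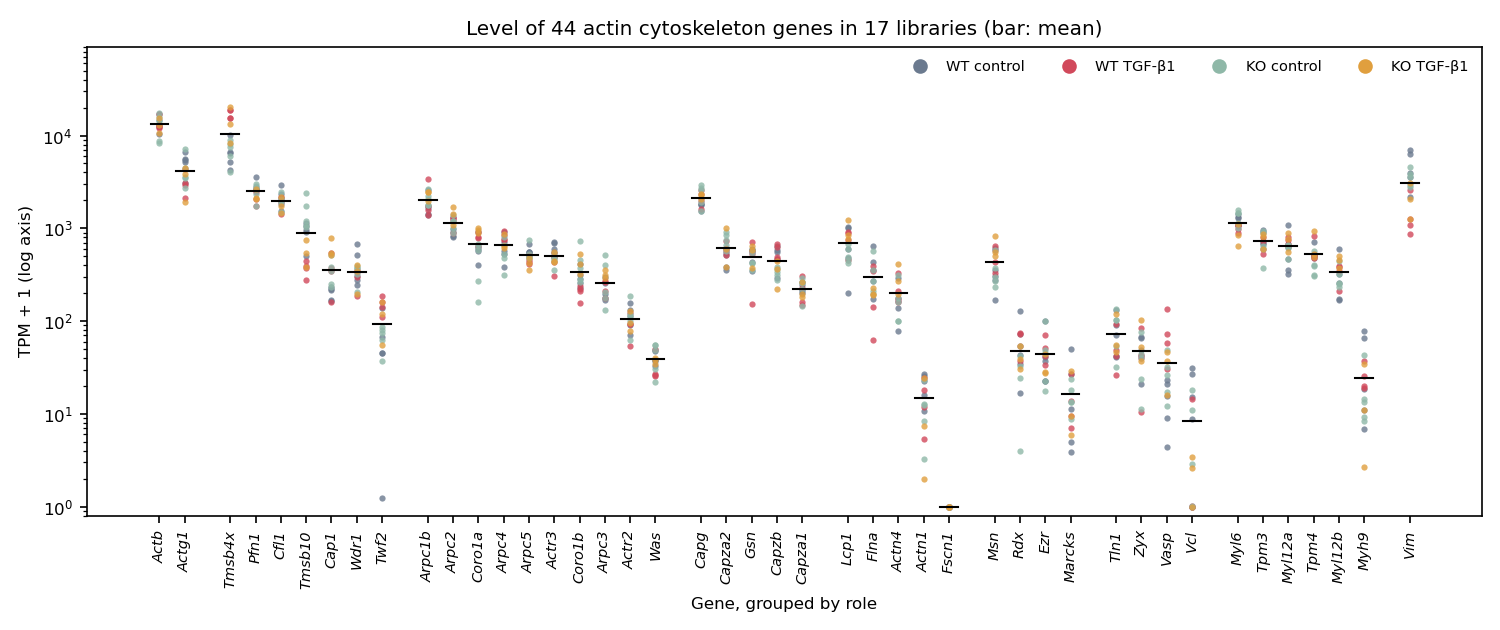
TPM + 1 of each gene on a log axis, with 1 point per library coloured by group (WT, wild type; KO, Smad3 knockout as labelled) and a bar at the mean of the 17 libraries, the genes set in role groups. Actb (mean 13264 TPM) and Tmsb4x (10455 TPM) stand at the top, 10 genes have a mean of 1000 TPM or more, and Fscn1, listed at 0, lies on the floor.

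Of the 43 genes tested, 2 passed the threshold in any comparison, both in wild-type macrophages. Tmsb4x, which encodes the monomer-holding thymosin β4, rose to 2.61 times its control level with TGF-β1. Vim, which encodes vimentin, fell in the same comparison, to 1449 ± 767 TPM (SD, n = 4) from 4577 ± 1993 TPM (n = 5). The test was limma on log2(TPM + 1) over all 12158 genes that reached the TPM minimum, and calls were made at 0.05 after Benjamini-Hochberg adjustment over that whole table. Of the 12158, 0.181% were called in that comparison (0.107% higher and 0.074% lower), against 1 higher and 1 lower of the 43. A difference below is on the log2(TPM + 1) scale, which understates the change of low genes, and carries its standard error (SE).

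Tmsb4x and Tmsb10 encode thymosin β4 and thymosin β10, small paralogous proteins that bind actin monomers one to one. Their coding sequences are shown because the share of Tmsb10 in the pair is described below, and because reads can be told apart only where the sequences differ. Both are 135 bases long and 70.4% identical, with 40 positions that differ, printed in capitals (GENCODE vM21 transcripts of GRCm38, sense strand, 5′ to 3′; Tmsb4x lies on chromosome X and Tmsb10 on chromosome 6).
Tmsb4x: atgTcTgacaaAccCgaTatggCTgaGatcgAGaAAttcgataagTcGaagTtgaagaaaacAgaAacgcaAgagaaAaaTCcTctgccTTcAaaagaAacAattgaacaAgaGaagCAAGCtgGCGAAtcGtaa
Tmsb10: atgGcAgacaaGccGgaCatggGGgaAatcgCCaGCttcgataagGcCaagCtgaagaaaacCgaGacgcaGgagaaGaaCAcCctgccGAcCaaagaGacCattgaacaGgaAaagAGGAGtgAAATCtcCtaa

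Tmsb4x stood at 6492, 4204, 6589, 10227 and 5179 TPM in the 5 wild-type controls. With TGF-β1 the 4 wild-type libraries held 18768, 15314, 15266 and 18966 TPM. The lowest treated library lay above the highest control, so the groups did not overlap. In libraries labelled knockout the controls held 7588, 8134, 8923, 4046 and 5973 TPM and those with TGF-β1 8291, 13402 and 20378 TPM. The first of these treated libraries lay below the highest control, and the other 2 above every control.

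The mean Tmsb4x level was 6538 ± 2286 TPM (SD, n = 5) in wild-type controls and 17079 ± 2067 TPM (n = 4) with TGF-β1, a difference of 1.44 ± 0.26 (SE) with a 95% interval of 0.90 to 1.98 and a limma adjusted p of 0.0161. The knockout-labelled means were 6933 ± 1942 TPM (n = 5) and 14024 ± 6067 TPM (n = 3), 2.02 times as high, with a difference of 0.97 ± 0.28 (SE) that did not pass (limma adjusted p = 0.526). The TGF-β1 effects of the 2 genotypes differed by -0.47 ± 0.38 (SE), interval -1.27 to 0.33, with a limma adjusted p of 0.997. That interval includes 0, and it is too wide to tell whether the effects were alike. The wild-type call was lost without TGF-β1 library 1 (adjusted p = 0.0623) or TGF-β1 library 4 (0.0627), without the 6 libraries with many genes at 0 (1.75, adjusted p = 0.127), with no filter on low genes (0.156) and under quantile normalization (1.25, adjusted p = 0.0726). The summed TPM of 10 cell cycle genes was also higher with TGF-β1, at 72.7 to 3049 in wild-type controls and 1734 to 4688 in treated wild-type libraries, and at 276 to 4526 and 3251 to 4199 under the knockout label. With that level in the fit the wild-type Tmsb4x difference was 1.34 with an adjusted p of 0.0883. If a library is many cells, fewer cells of a type and less RNA per cell cannot be told apart, here or in any difference below.

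Tmsb10 lay the other way. Wild-type controls held 922, 1146, 1048, 969 and 498 TPM and wild-type TGF-β1 libraries 444, 392, 275 and 374 TPM. Every treated wild-type library was below every control. Controls labelled knockout held 1075, 2389, 1758, 1024 and 1189.6 TPM and the treated libraries 747, 541 and 381 TPM, again with no overlap. Neither difference passed the threshold: it was -1.27 ± 0.30 (SE) in wild type (limma adjusted p = 0.0844) and -1.39 ± 0.33 (SE) under the knockout label (adjusted p = 0.306), and the 2 effects differed by -0.12 with an interval of -1.04 to 0.80. Tmsb10 passed in wild type when control library 5, its lowest control, was left out (-1.47, adjusted p = 0.0347).

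As a share of the thymosin pair, Tmsb10 made up 13.0 ± 5.21% of the summed TPM in wild-type controls (SD, n = 5) and 2.13 ± 0.33% with TGF-β1 (n = 4). The knockout-labelled share was 17.7 ± 3.94% in controls (n = 5) and 4.66 ± 3.28% with TGF-β1 (n = 3). The share was lower in every treated library than in every control of the same label. The knockout-labelled treated library with the highest share, at 8.26%, had the lowest Tmsb4x and the highest Tmsb10 of its group. Tmsb4x is part of the total, so a low Tmsb4x raises the share by definition. These shares are descriptions with no test. The paralogs share no stretch of 50 bases with each other, but 27.0% of the 50-base stretches of the Tmsb10 transcripts also occur in another gene, so part of its level depends on how RSEM divided reads. Of the 5 other genes that share them, only Gm9844 had a row in the matrix, and the levels of the rest are not known. Gm9844 was at 19.1 ± 21.4 TPM in wild-type controls and 2.89 ± 2.43 TPM with TGF-β1, far below Tmsb10 itself in each library group.

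**Figure D2:**
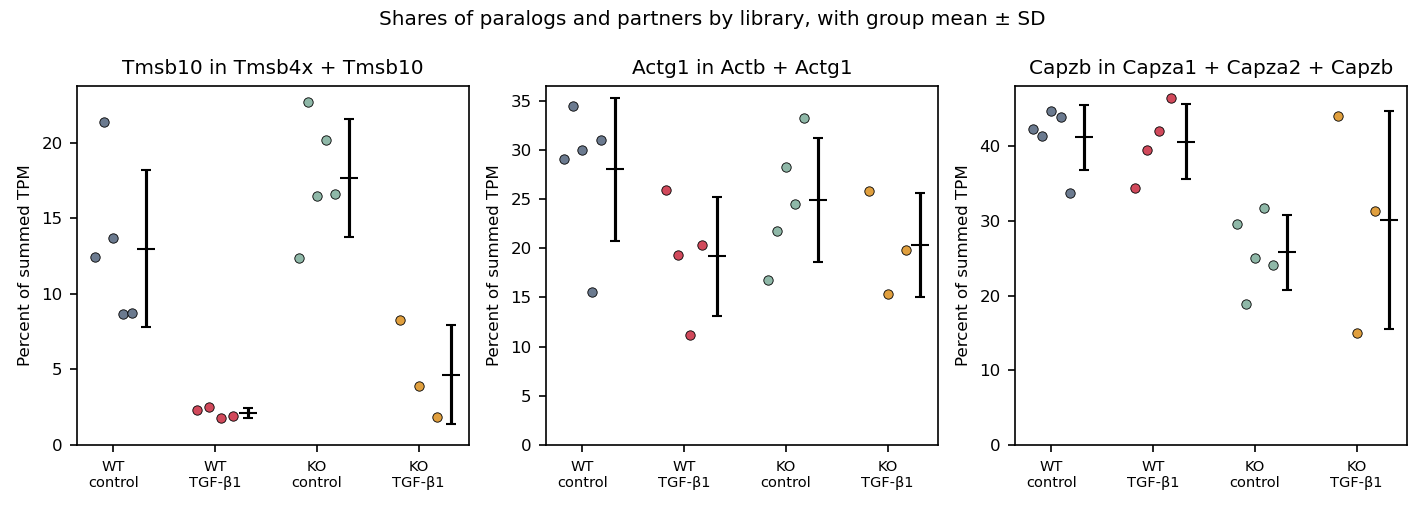
Percent of summed TPM, by library (points) with the group mean and SD (bars), for Tmsb10 in Tmsb4x + Tmsb10, Actg1 in Actb + Actg1, and Capzb in the 3 genes of capping protein. Tmsb10 made up 8.65% to 22.7% of its pair in the controls and 1.77% to 8.26% with TGF-β1. The Capzb share, chosen after its values were seen and not tested, was lower in all 5 knockout-labelled controls than in all 5 wild-type controls.

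Actb and Actg1 encode the cytoplasmic β- and γ-actins, the building blocks of the filaments. The proteins are nearly the same, and the first 60 bases of the coding sequences are shown because they hold the codons at the start of the protein where the 2 actins differ. Over that stretch 9 positions differ, in capitals, and over the whole 1128 bases the coding sequences are 88.7% identical (GENCODE vM21 transcripts of GRCm38, sense strand; Actb lies on chromosome 5 and Actg1 on chromosome 11).
Actb: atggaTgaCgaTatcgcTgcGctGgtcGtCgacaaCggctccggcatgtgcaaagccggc
Actg1: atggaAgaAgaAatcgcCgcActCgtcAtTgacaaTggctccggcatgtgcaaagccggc

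Actb was high in every library and did not separate the groups. It stood at 12809.8, 10308, 12949, 16880 and 14672 TPM in wild-type controls and at 12602, 12287, 16946 and 12083 TPM with TGF-β1. Controls labelled knockout held 17604, 15885, 8767, 8312 and 14388 TPM and the treated libraries 12858, 10711 and 15429 TPM. The ranges of the 4 groups overlapped. The TGF-β1 difference was -0.00 in wild type with an interval of -0.42 to 0.42, and 0.05 under the knockout label with an interval of -0.41 to 0.51 (limma adjusted p = 1 and 0.995).

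Actg1 was below Actb in all 17 libraries, with 5235, 5415, 5545, 3096 and 6600.3 TPM in wild-type controls and 4403, 2938, 2132 and 3084 TPM with TGF-β1. Under the knockout label it stood at 3535, 4424, 3459, 2701 and 7148 TPM in controls and 4475, 1939 and 3817 TPM with TGF-β1. Wild-type treated libraries were mostly below the controls, but control library 4 was within their range. The difference was -0.73 ± 0.29 (SE) in wild type (limma adjusted p = 0.410) and -0.32 ± 0.31 (SE) under the knockout label (adjusted p = 0.954). Actg1 made up 28.0 ± 7.28% of the actin pair in wild-type controls, 19.2 ± 6.07% with TGF-β1, 24.9 ± 6.26% in knockout-labelled controls and 20.3 ± 5.26% in their treated libraries. Of the 50-base stretches of the Actg1 transcripts 45.6% occur in another gene, against 12.3% for Actb, and Actg1 levels are the less certain of the 2.

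Set against actin, thymosin β4 transcripts came close to the level of their partner only in most treated libraries and 1 control. The ratio of Tmsb4x to Actb TPM was 0.477 ± 0.0983 in wild-type controls (SD, n = 5) and 1.30 ± 0.300 with TGF-β1 (n = 4). It was 0.573 ± 0.252 in controls labelled knockout (n = 5) and 1.07 ± 0.372 with TGF-β1 (n = 3). The lowest treated ratio under that label, 0.645, was near the highest wild-type control, 0.606. Tmsb4x exceeded Actb in 3 of 4 wild-type treated libraries, 2 of 3 treated libraries labelled knockout and 1 of the 10 controls, knockout control 3.

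Pfn1 encodes profilin, which recharges monomers and hands them to growing filament ends. It stood at 2606, 2645, 2590.0, 3589.8 and 2782 TPM in wild-type controls and 1722, 2599, 2453 and 2069 TPM with TGF-β1. Knockout-labelled libraries held 2652, 2879, 2345, 1749.9 and 2998 TPM without and 2119, 2079 and 2642 TPM with TGF-β1. The treated libraries overlapped the controls under both labels. Its spread within groups was among the lowest of the 43 genes, and its TGF-β1 differences were -0.37 ± 0.18 (SE) and -0.13 ± 0.20 (SE). Cfl1 encodes cofilin, which severs old filaments. Cfl1 held 2338, 1526, 2112, 2945 and 1843 TPM in wild-type controls, 1926, 2042, 2176 and 1425 TPM with TGF-β1, 2072, 2431, 1984, 1494 and 1924 TPM in knockout-labelled controls and 1738, 1443 and 2166 TPM in their treated libraries. Its groups overlapped, with differences of -0.17 ± 0.20 (SE) and -0.15 ± 0.22 (SE).

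Cap1 encodes cyclase-associated protein, which strips cofilin from monomers and recycles them. Wild-type controls held 223, 168, 164, 231 and 215 TPM and wild-type TGF-β1 libraries 161, 345, 546 and 374 TPM. Knockout-labelled controls held 348, 518, 231, 247 and 379 TPM and the treated libraries 535, 517 and 788 TPM. Both treated groups and both knockout-labelled groups had higher means, and none of the 4 differences passed: 0.72 ± 0.34 (SE) and 0.87 ± 0.37 (SE) for TGF-β1, 0.73 and 0.88 for genotype label in control and treated libraries (limma adjusted p = 0.499, 0.775, 0.815 and 0.904). Twf2, a twinfilin that binds monomers and filament ends, was at 43.9, 66.5, 136, 44.8 and 0.250 TPM in wild-type controls and 184, 109.7, 140.0 and 158 TPM with TGF-β1. Control library 5 was near 0, and the difference of 2.29 ± 0.90 (SE) had a limma adjusted p of 0.410. The 7 monomer genes, Wdr1 included, held 1.31 ± 0.32% of TPM in wild-type controls and 2.24 ± 0.14% with TGF-β1, and 1.37 ± 0.30% and 1.97 ± 0.66% under the knockout label. Of the 7, 1 was called in wild type, Tmsb4x, while the median difference of the 7 was -0.17.

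**Figure D3:**
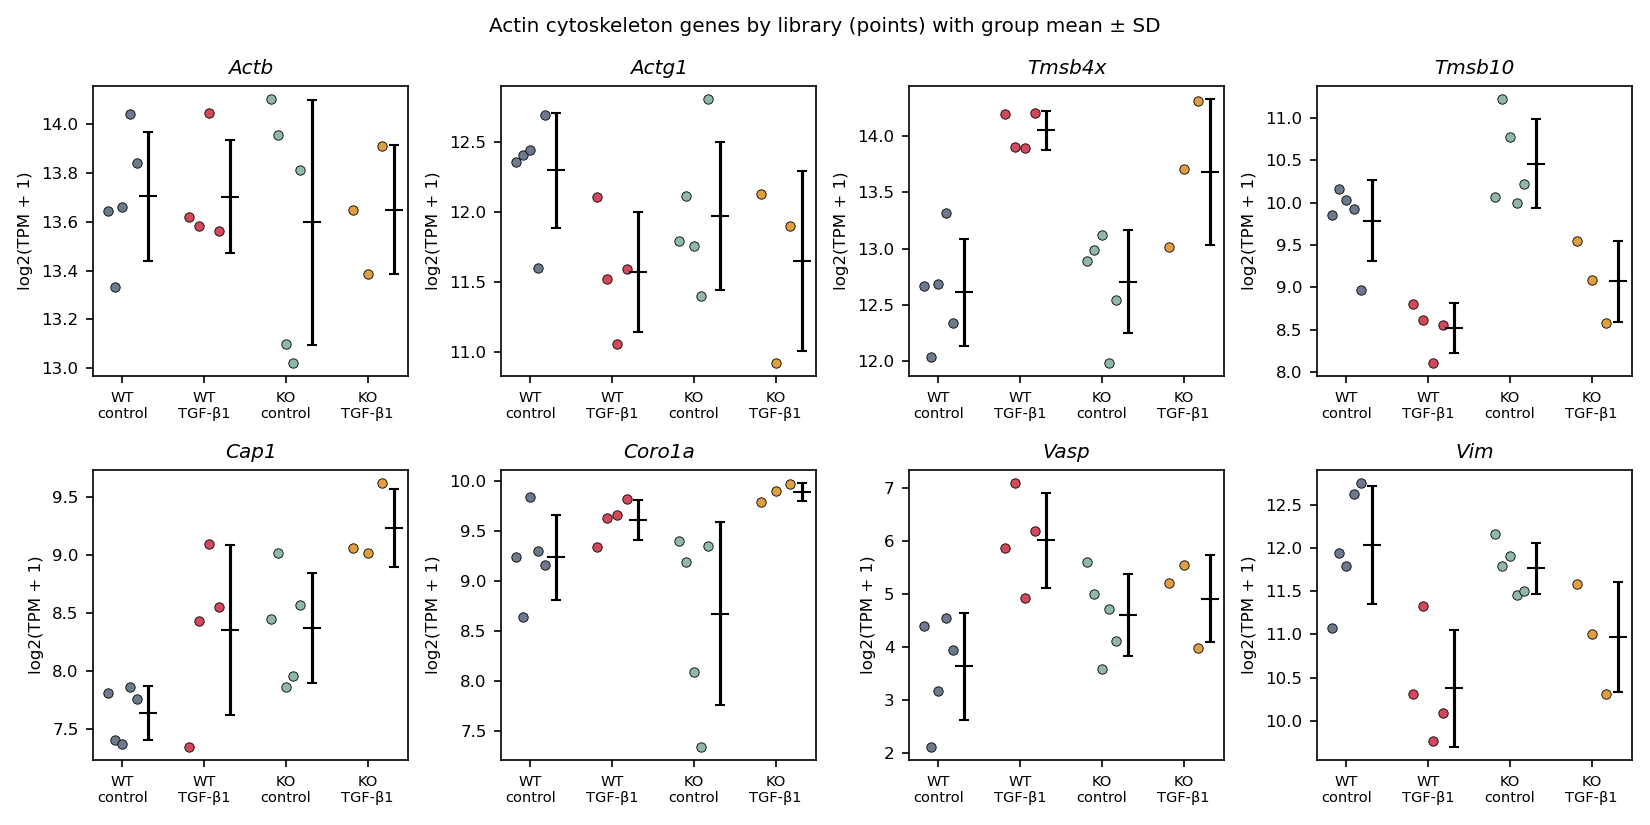
log2(TPM + 1) by library (points) in the 4 groups, with group mean and SD (bars), for genes the comparisons turn on. Tmsb4x in wild-type TGF-β1 libraries lies above all wild-type controls, Tmsb10 lies below all controls of the same label in both treated groups, and Actb overlaps in all 4 groups.

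Vimentin forms intermediate filaments, which are separate from actin and resist stretching. By the mean over all 17 libraries, Vim was the most abundant gene of the 44 after Actb, Tmsb4x and Actg1. It stood at 2159, 3929, 3546, 6343 and 6909.6 TPM in wild-type controls and 1269, 2573, 867 and 1087 TPM with TGF-β1. Treated libraries 1, 3 and 4 lay below all 5 controls, and library 2 lay above control 1. Controls labelled knockout held 4589, 3552, 3842, 2813 and 2893 TPM and the treated libraries 3079.7, 2049.7 and 1269 TPM, with 1 treated library inside the control range. The wild-type difference was -1.67 ± 0.34 (SE) with an interval of -2.37 to -0.97 and a limma adjusted p of 0.0446. Under the knockout label it was -0.80 ± 0.37 (SE) (adjusted p = 0.820), and the effects differed by 0.87 ± 0.50 (SE), interval -0.17 to 1.90 (adjusted p = 0.997). The call rests on few libraries: it was lost when any of control libraries 2, 3, 4 or 5 or treated libraries 1, 3 or 4 was left out (adjusted p = 0.0700 to 0.118), and the difference was -0.93 (adjusted p = 0.561) without the 6 libraries with many genes at 0. It was also lost when wild-type libraries were fitted alone (adjusted p = 0.202) or with no filter on low genes (0.207), while with the cell cycle level in the fit it was -2.06 with an adjusted p of 0.00943.

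The Arp2/3 complex starts new filaments on the sides of old ones, and the complex holds its 7 subunits in equal number. Their transcript levels differed. Mean TPM over the 17 libraries was 2021 for Arpc1b, 1145 for Arpc2, 664 for Arpc4, 508 for Arpc5, 500.3 for Actr3, 259 for Arpc3 and 106 for Actr2. Arpc1b was the highest of the 7 and Actr2 the lowest in all 17 libraries. Of the 50-base stretches, 44.5% of Actr3, 10.7% of Arpc1b and 10.0% of Arpc4 occur in other genes.

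Arpc1b, a subunit isoform prominent in blood cells, held 1748, 1407, 2568, 1434 and 1635 TPM in wild-type controls, 1401, 1759, 3427 and 1579 TPM with TGF-β1, 1798, 2618, 2239, 1777 and 2066 TPM in knockout-labelled controls and 2489.6, 2432 and 1985 TPM in their treated libraries. The groups overlapped (differences of 0.16 ± 0.24 (SE) and 0.14 ± 0.26 (SE)). Actr3, one of the actin-related subunits that give the complex its name, held 593, 561, 703, 694 and 489 TPM in wild-type controls and 489, 427, 305 and 538 TPM with TGF-β1. The knockout-labelled libraries held 479.5, 547, 438, 353 and 464 TPM without TGF-β1 and 434, 549 and 442 TPM with it. Its TGF-β1 effects differed between genotype labels by 0.55 ± 0.35 (SE) (limma adjusted p = 0.997). Arpc5 had the smallest spread within groups of the 43 tested genes, an SD of 0.20 on the log2 scale. Its 3 treated libraries labelled knockout lay below all controls of that label with a difference of -0.38 ± 0.24 (SE) (adjusted p = 0.882). The groups nearly touched, with the highest treated library at 474 TPM and the lowest control at 476 TPM.

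Coronins bind filaments and help to take branches apart, and Coro1a is the form typical of blood cells. Coro1a stood at 602, 397, 919, 629.5 and 573 TPM in wild-type controls and 649, 792, 809 and 903 TPM with TGF-β1. Knockout-labelled controls held 676, 584, 272, 161 and 651 TPM and the treated libraries 889, 958 and 1005 TPM, with no overlap. The knockout-labelled difference was 1.22 ± 0.39 (SE) (limma adjusted p = 0.627), the wild-type one 0.38 ± 0.36 (SE), and they differed by 0.84 ± 0.53 (SE) (adjusted p = 0.997). Knockout-labelled controls 3 and 4 were lower than any wild-type library. Coro1b, a widely expressed coronin, held 224, 412, 279.6, 258 and 313 TPM in wild-type controls, 239, 219.9, 156 and 209 TPM with TGF-β1, 261, 458, 284, 368 and 734 TPM in knockout-labelled controls and 406, 319 and 531 TPM in their treated libraries. Among treated libraries the knockout label was higher by 1.01 ± 0.36 (SE) without overlap, and the difference did not pass (limma adjusted p = 0.743). Of the 50-base stretches of Coro1b 19.95% occur in another gene, so part of its level depends on how reads were divided. Was, which encodes the blood cell activator of Arp2/3, averaged 37.7 TPM. None of the 10 branching genes was called in any comparison, and their median TGF-β1 difference was -0.12 in wild type and 0.10 under the knockout label.

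Filament ends are capped by CapZ, a dimer of an α subunit (Capza1 or Capza2) and the β subunit Capzb, and by Capg, a gelsolin relative abundant in macrophages. Capg held 1827, 2126, 1781, 1524 and 1839 TPM in wild-type controls, 2327, 2564, 1975 and 1608 TPM with TGF-β1, 2688, 2917, 1541, 1900.2 and 2614 TPM in knockout-labelled controls and 2260.4, 2077 and 2344 TPM in their treated libraries. Its groups overlapped and its TGF-β1 differences were 0.21 ± 0.19 (SE) and -0.03 ± 0.21 (SE). Capza2 was above Capza1 in all 17 libraries. Capza2 stood at 378, 536, 595, 516 and 358 TPM in wild-type controls and 731, 518, 618 and 568 TPM with TGF-β1. Knockout-labelled controls of Capza2 held 656, 912, 746, 563 and 844 TPM and treated libraries 382, 999 and 600.1 TPM. Its treated and control libraries overlapped under both labels. Capza1 stood at 259.9, 242, 202, 221 and 209 TPM in wild-type controls and 158, 228, 308 and 147 TPM with TGF-β1. For Capza1 the knockout-labelled controls held 257, 290.3, 261, 220.0 and 145 TPM and the treated libraries 180.1, 259.5 and 194 TPM. The α subunits are 76.9% identical in coding sequence, and 72.7% of the 50-base stretches of Capza1 occur in other genes, so its level is uncertain while Capza2 shares none.

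Capzb was at 468, 549.7, 644, 576 and 288 TPM in wild-type controls, 466, 488, 672 and 621 TPM with TGF-β1, 383, 279, 336, 364 and 314 TPM in knockout-labelled controls and 443, 222 and 361 TPM in their treated libraries. Between genotype labels, Capza2 differed by 0.65 ± 0.25 (SE) in controls (limma adjusted p = 0.753). Capzb differed by -0.55 ± 0.26 (SE) in controls (adjusted p = 0.857) and by -0.75 ± 0.32 (SE) in treated libraries (adjusted p = 0.875), where the groups did not overlap. Neither gene passed. Gsn, the filament-severing gelsolin, averaged 493 TPM, and none of the 5 capping and severing genes was called in any comparison.

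Among the genes that join filaments into bundles and networks, Lcp1 (L-plastin of blood cells), Actn1, Actn4 and Flna were tested. The α-actinin Actn4 was above Actn1 in all 17 libraries. Actn4 stood at 163, 137, 288, 77.5 and 177 TPM in wild-type controls and 172, 161, 328 and 208 TPM with TGF-β1. The knockout-labelled libraries held 315, 98.2, 178, 99.4 and 158 TPM without TGF-β1 and 272, 410.1 and 194 TPM with it. Its treated libraries overlapped the controls. Actn1 stood at 25.7, 24.7, 9.83, 21.4 and 14.98 TPM in wild-type controls and 4.40, 10.7, 23.1 and 17.1 TPM with TGF-β1. In libraries labelled knockout it stood at 7.42, 22.1, 11.8, 2.25 and 11.3 TPM in controls and 23.4, 0.960 and 6.48 TPM after treatment. Actn1 overlapped as well and was the lower in expression throughout. Lcp1 was higher in all 3 treated libraries labelled knockout than in the controls of that label, by 0.83 ± 0.41 (SE) (limma adjusted p = 0.843), and differed by 0.36 ± 0.38 (SE) in wild type (adjusted p = 0.815). Fscn1, a bundler gene typical of mature dendritic cells, was listed at 0, and without read counts that value does not show that its transcript was absent.

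Moesin, ezrin and radixin tie filaments to the cell membrane, and moesin predominated. Msn was above Ezr and Rdx in all 17 libraries, with 357, 166, 619, 275 and 303 TPM in wild-type controls and 434, 578, 638 and 331 TPM with TGF-β1. The knockout-labelled values were 586, 231, 272, 295 and 368 TPM in controls and 552, 832 and 502 TPM with TGF-β1. The Msn difference with TGF-β1 was 0.61 ± 0.36 (SE) in wild type and 0.89 ± 0.39 (SE) under the knockout label (limma adjusted p = 0.609 and 0.794). Ezr held 21.9, 40.1, 100.3, 21.6 and 36.5 TPM in wild-type controls and 32.6, 41.2, 70.4 and 49.7 TPM with TGF-β1. The knockout-labelled libraries held 43.99, 47.9, 98.9, 16.6 and 21.4 TPM without TGF-β1 and 27.5, 26.3 and 42.7 TPM with it. Neither treated group of Ezr lay apart from its controls. Rdx held 33.3, 42.2, 71.5, 126 and 15.7 TPM in wild-type controls and 52.2, 36.01, 72.98 and 72.4 TPM with TGF-β1. In libraries labelled knockout it stood at 23.1, 40.9, 53.5, 31.7 and 3.01 TPM in controls and 37.9, 29.8 and 53.4 TPM after treatment. Rdx varied from 3.01 to 126 TPM between libraries. No membrane linker was called, and Marcks, which holds membrane lipids and actin together, was the lowest of the 4.

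Talin, vinculin, zyxin and VASP join filaments to integrins at adhesion sites and to growing ends, and their genes were the lowest of the role groups at 0.0152 ± 0.00614% of TPM in wild-type controls. Vasp, which encodes a filament elongator, stood at 19.99, 3.35, 8, 22.4 and 14.5 TPM in wild-type controls and 57.3, 135, 29.3 and 71.4 TPM with TGF-β1, without overlap. Under the knockout label it stood at 47.6, 30.9, 11.1, 25.3 and 16.4 TPM in controls and 35.9, 45.9 and 14.8 TPM with TGF-β1, and these groups overlapped. The wild-type difference was 2.38 ± 0.70 (SE) (limma adjusted p = 0.211), the knockout-labelled one 0.31 ± 0.76 (SE) (adjusted p = 0.989), and they differed by -2.07 ± 1.03 (SE), interval -4.22 to 0.08 (adjusted p = 0.997). None of these passed. Vcl, vinculin, reached TPM 1 in only 10 of 17 libraries and had the widest spread within groups, an SD of 1.84, and its wild-type difference of -2.40 ± 1.20 (SE) did not pass (limma adjusted p = 0.527).

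Myosin II pulls filaments together, with light chains that fix its shape and switch it on, and tropomyosins lie along the filament. Myl6, the essential light chain, held 1309.8, 1072, 1095, 1435 and 1306 TPM in wild-type controls, 1079.6, 976, 888 and 1065 TPM with TGF-β1, 1130.3, 1463, 1450.3, 1007 and 1557 TPM in knockout-labelled controls and 1116, 645 and 853 TPM in their treated libraries. Its knockout-labelled difference was -0.62 ± 0.22 (SE) (limma adjusted p = 0.709), against -0.31 ± 0.20 (SE) in wild type. The regulatory light chains Myl12a and Myl12b are 96.5% identical in coding sequence. Of their 50-base stretches 19.1% and 22.4% occur in another gene, so their levels depend in part on how reads were divided. Myl12a was the higher in all 17 libraries, but in wild-type control 3 the 2 were nearly equal, at 318.25 and 317.54 TPM. Myl12a stood at 669.6, 469.7, 318, 1082 and 358 TPM in wild-type controls and 743, 799, 621 and 673 TPM with TGF-β1. For Myl12a the knockout-labelled controls held 609.5, 626, 655, 468 and 652 TPM and the treated libraries 559, 773 and 899.8 TPM. These chains switch the myosin on when they are phosphorylated. Myl12b stood at 170.2, 255, 318, 596 and 168 TPM in wild-type controls and 388, 346, 212 and 379.8 TPM with TGF-β1. The knockout-labelled libraries held 321, 259, 438, 250.2 and 235 TPM without TGF-β1 and 373, 449.8 and 506 TPM with it. The treated libraries of both light chains overlapped their controls, and neither gene was called.

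Tpm3 was above Tpm4 in 13 of 17 libraries. Tpm3 held 689, 672, 915, 954 and 729.8 TPM in wild-type controls and 732, 599, 808 and 529.8 TPM with TGF-β1. In libraries labelled knockout it stood at 945, 879, 595, 639 and 374 TPM in controls and 804, 866 and 598 TPM after treatment. Tpm3 overlapped between treated and control libraries. Tpm4 held 479, 712, 516, 499 and 502 TPM in wild-type controls and 834, 523, 500.1 and 479 TPM with TGF-β1. The knockout-labelled values were 307, 392, 399.6, 311 and 567 TPM in controls and 492, 930.5 and 521 TPM with TGF-β1. The Tpm4 difference was 0.68 ± 0.29 (SE) under the knockout label (limma adjusted p = 0.775) and 0.09 ± 0.27 (SE) in wild type (adjusted p = 0.960). Of the 50-base stretches, 40.0% of Tpm3 and 12.1% of Tpm4 occur in other genes. The heavy chain gene Myh9 was among the most variable of the 43, with an SD within groups of 1.26, and none of the 6 myosin and tropomyosin genes was called.

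Counted over all 43 genes, the wild-type TGF-β1 comparison had 22 positive and 21 negative differences, with a median of 0.03 against 0.09 over all genes tested, of which 53.8% were positive. An unadjusted p under 0.05 was reached by 4 higher and 3 lower genes of the 43 against 9.97% of all genes tested (6.7% higher and 3.27% lower). The groups did not overlap for 2 higher genes, Tmsb4x and Vasp, and 1 lower gene, Tmsb10, where 1.8% of all genes lay apart higher and 0.987% lower. The median size of the difference, without its sign, was 0.37 for the 43 genes and 0.70 for all genes tested, with median SEs of 0.34 and 0.97.

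In libraries labelled knockout, limma called 0 of the 43 with TGF-β1, where 0.00823% of all genes were called. An unadjusted p under 0.05 was reached by 5 higher and 3 lower genes, against 3.73% and 2.2% of all genes, and Coro1a and Lcp1 lay apart higher and Tmsb10 and Arpc5 lower, against 3.05% and 1.84% of all genes. The difference of the TGF-β1 effect between labels was called for 0 of the 43 and 0% of all genes, and 0 of the 43 had an unadjusted p under 0.05, against 4.68% of all genes.

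The genotype comparisons called none of the 43 either. In controls limma called 0 of 43, against 0.148% of all genes. The 3 higher genes and 1 lower gene at an unadjusted p under 0.05, against 3.9% and 1.92% of all genes, were Capza2, Tmsb10, Cap1 and, lower, Capzb. No gene of the 43 had groups apart there, against 1.06% of all genes. In treated libraries 0 of 43 were called against 0.156% of all genes, with 2 higher genes and 1 lower gene at an unadjusted p under 0.05 against 3.21% and 2.04% of all genes. Coro1b and Arpc3 lay apart higher and Capzb lower, against 3.15% and 2.34% of all genes. These comparisons share their libraries with the TGF-β1 comparisons and are not independent of them.

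**Figure D4:**
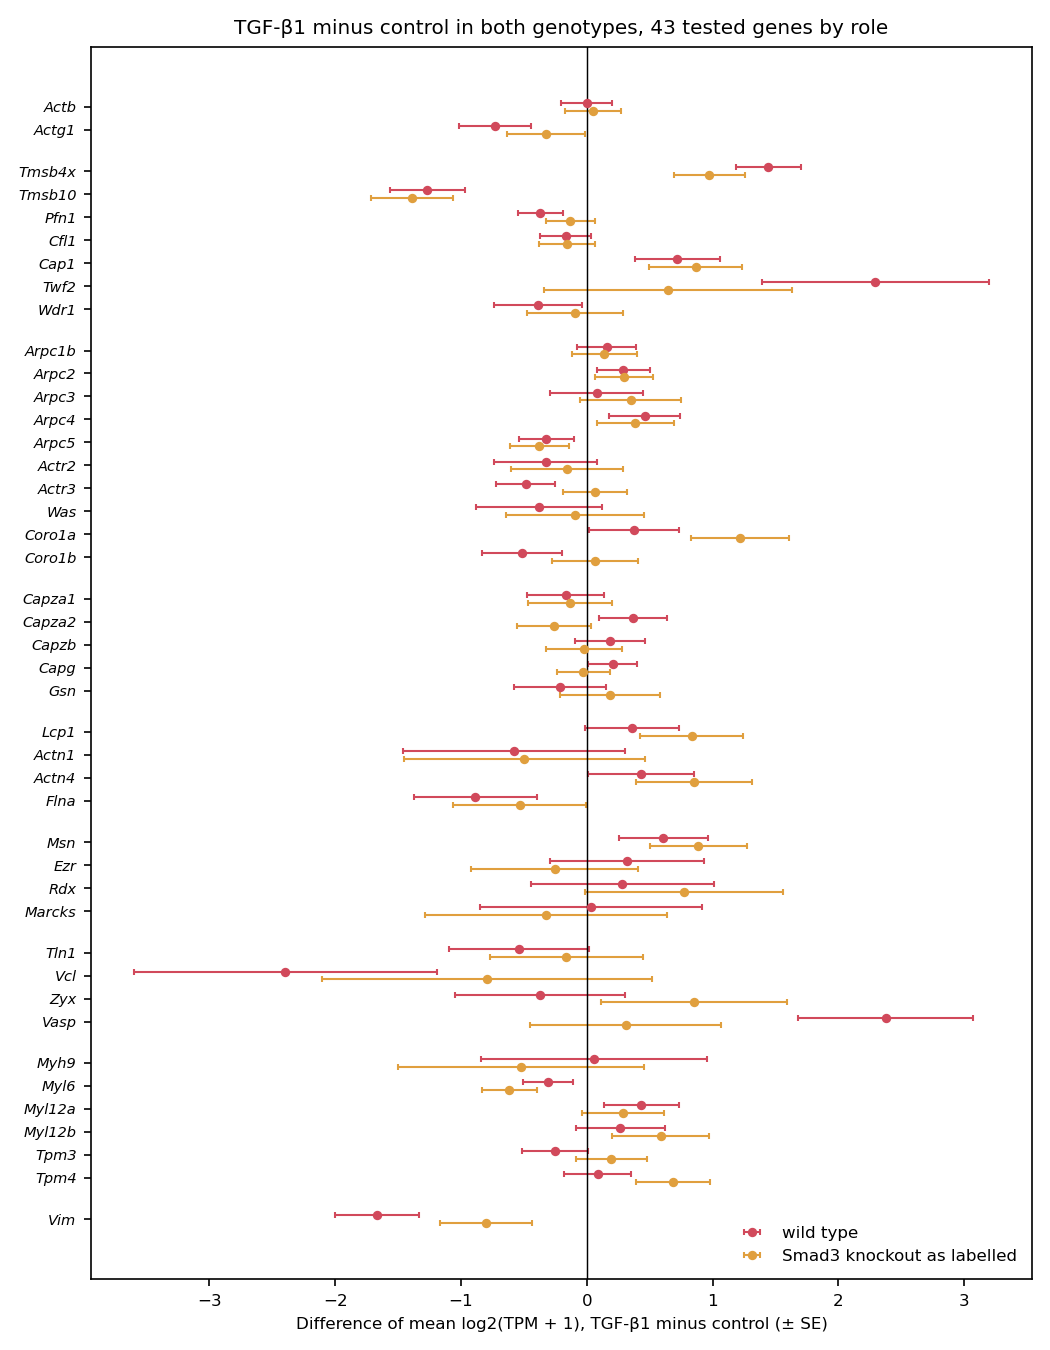
Difference of mean log2(TPM + 1) between TGF-β1 and control (points) with its SE (bars) for the 43 tested genes, in wild type (red) and under the knockout label (orange). The 2 called genes are Tmsb4x at 1.44 and Vim at -1.67, both in wild type, and Tmsb10 lies below 0 in both, at -1.27 and -1.39.

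The spread between libraries of a group was smallest among the most abundant genes. At 1000 TPM or more the median SD within groups was 0.32 for the 10 cytoskeletal genes and 0.42 for all 112 genes. At 100 to 1000 TPM it was 0.47 for 22 genes and 0.61 for all 1518, and at 10 to 100 TPM it was 1.02 for 10 genes and 1.70 for all 5841. At 1 to 10 TPM it was 1.51 for all 4084 genes, below that of the range above, and 1.84 for Vcl, the 1 cytoskeletal gene there. Arpc5, Myl6, Pfn1 and Actr3 varied least, with SDs of 0.20 to 0.26, and Vcl, Twf2 and Myh9 most, with 1.26 to 1.84. These medians are descriptions of the libraries with no test.

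A list of other regulators of actin (among them kinases and phosphatases of cofilin, formins, WAVE complex, spectrins, unconventional myosins, integrin adaptors and the MRTF-SRF factors) had 81 genes in the matrix, of which 73 were tested. limma called 0 of the 73 in each of the 5 comparisons. With TGF-β1 in wild type 6 of the 73 were higher and 1 lower at an unadjusted p under 0.05, against 6.7% and 3.27% of all genes tested. The highest-ranked were Ssh2, a phosphatase that activates cofilin, at 2.16 ± 2.70 and 27.8 ± 18.1 TPM (SD; 3.45 ± 0.99 (SE), limma adjusted p = 0.194), and Parvg, the parvin of blood cells, at 25.2 ± 35.7 and 127 ± 15.5 TPM (4.33 ± 1.39 (SE), adjusted p = 0.269). The lower pair were Myo1g, an unconventional myosin (-1.63 ± 0.76 (SE), adjusted p = 0.499), and Diaph1, a formin (-1.51 ± 0.73 (SE), adjusted p = 0.504). Under the knockout label 7 of the 73 were higher and 0 lower at an unadjusted p under 0.05, against 3.73% and 2.2% of all genes tested. They were led by Hcls1, the cortactin of blood cells (1.38 ± 0.39 (SE), limma adjusted p = 0.526), and Pak1, a kinase downstream of Rac (2.35 ± 0.70 (SE), adjusted p = 0.532). The lower pair by rank there, Mrtfa (-1.77 ± 0.98 (SE), adjusted p = 0.854) and Rhob (-1.65 ± 1.29 (SE), adjusted p = 0.924), were far from the threshold. Mrtfa encodes a coactivator that monomeric actin holds out of the nucleus.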

How the data were processed

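The authors deposited 1 matrix of TPM values, estimated with RSEM after FastQC and Trim Galore against mouse build mm9, per the submitters' processing notes; their versions are not given in the sources used here. Values of different genes can be compared in this unit, since it is corrected for length. Where transcripts are nearly the same, RSEM shares reads out by estimate, so paralogs and pseudogenes can trade reads. Symbols came from GENCODE vM21 (GRCm38) for 32897 of 37620 gene IDs; 4723 had none. That build is not the submitters', so no coordinates are printed, and its transcripts served for sequences and for the share of 50-base stretches found in another gene.

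Groups came from the titles. The sort for smooth muscle actin, which no label assigns to a library, was not analysed here. Values were analysed as log2(TPM + 1) with limma 3.58.1 in R 4.3.3 (eBayes with a trend, 95% intervals) in 1 fit over 17 libraries and 4 groups, on the 12158 genes with 3 or more libraries at TPM 1. Benjamini-Hochberg adjustment ran over all of them. The fit was tested on simulated data. Shares, ratios and counts have no test.

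The genes, role groups and lists were chosen with earlier results of these data known. Values in every library are given for the 8 highest genes, genes called, the 4 with the smallest p per comparison and the paralogs; Lcp1, Arpc5, Twf2, Vcl and Arpc3, and the CapZ share, were singled out after their values were seen. Of the other regulators, the 2 higher and 2 lower with the smallest p and a group mean of at least 10 TPM are named. Alternatives were the pseudocount, the filter, scaling, the replicate number as a block, gene number as a covariate, subsets of libraries, and the cell cycle level as a covariate, which was chosen after seeing the data.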

Additional observations from a re-analysis of the deposited data

Results flagged for a closer look

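In groups of 4 or 5 libraries, a library was singled out where its gap to the nearest other library, as a part of the whole range, passed the 95% limit of Dixon's test. Chance alone flags about 1 in 20 groups, and 8 of the 87 groups examined were flagged. No cause was tested for any of them.

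For thymosin β10, wild-type control library 5 was the lowest, with a Tmsb10 level of 8.96 on the log2(TPM + 1) scale and the nearest control at 9.85. For Twf2, the twinfilin gene, the same control library 5 was the lowest at 0.32, with the nearest at 5.49. For Actb, wild-type TGF-β1 library 3 was the highest at 14.05, with the nearest at 13.62. For Pfn1, wild-type control library 4 was the highest at 11.81, with the nearest at 11.44. In that same library 4, Actg1 made up 15.5% of the actin pair, the lowest of the wild-type controls, with the nearest at 29.0%. For Tpm4, the tropomyosin gene, 2 libraries were flagged: wild-type control 2 was the highest control at 9.48, with the nearest at 9.01, and wild-type TGF-β1 library 1 was the highest of its group at 9.71, with the nearest at 9.03. Actn1 made up 18.4% of the α-actinin pair in knockout-labelled control 2, the highest of its group, with the nearest at 6.68%.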

How the results depend on the processing

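Of 1157 values that other settings gave for 57 named gene differences, 20 lost a call, all of Tmsb4x and Vim in wild type, 1 gained one, Tmsb10 without wild-type control library 5, and 32 changed sign, all of differences not called as reported. The number of the 43 genes called with TGF-β1 in wild type, 2 as reported, was 1 with a pseudocount of 0.1 or 10, under quantile normalization, with the compared groups fitted alone and with the cell cycle level as a covariate. It was 0 with no filter on low genes, with a replicate block and without the 6 libraries with over 10% of moderate genes at 0, and 0 to 2 when 1 library was left out. Tmsb4x passed in 13 of 20 alternatives (1.25 to 1.75) and Vim in 7 of 20 (-2.06 to -0.93). The count was 0 in the other 4 comparisons under all settings run.

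Same-numbered libraries did not deviate together more than others. Their median correlation of deviations was -0.0103 over 22 pairs, that of different-numbered ones 0.00183 over 85. Of the 17 libraries, 0 matched best with their own number. All these correlations were near 0, from -0.0761 to 0.0581, so they cannot show whether libraries of 1 number shared an animal or culture. With the replicate block Tmsb4x was 1.39 (adjusted p = 0.0788), Vim -1.61 (adjusted p = 0.129) and Actb in wild type 0.044. Actb there was 0.091 with the count of genes at TPM 1 as a covariate. Without the 6 libraries, Actb was 0.10 and Lcp1 -0.21 in wild type, Actg1 0.076, Capg 0.11 and Cfl1 0.066 under the knockout label, and the Tmsb10 difference of effects 0.15. Under that label, upper-quartile scaling gave -0.10 for Actb and -0.0087 for Arpc1b, the cell cycle covariate gave -0.14 for Actb, and quantile normalization gave 0.058 for Capg. Leaving out 1 library in wild type gave -0.12 to 0.084 for Actb, -0.12 to 0.31 for Arpc1b, -0.014 to 0.58 for Lcp1 and -0.098 to 0.19 for Tpm4. Under the knockout label it gave -0.092 to 0.18 for Actb, -0.56 to 0.042 for Actg1, -0.17 to 0.063 for Capg and -0.010 to 0.77 for Vasp, and -0.36 to 0.12 for the Tmsb10 difference of effects. The cause of these changes was not tested.

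Quantile normalization moved the median wild-type difference of all genes from 0.09 to -0.06, and upper-quartile scaling moved the knockout-labelled one from 0.07 to -0.03. Depth is unknown for TPM, so what it limits could not be measured.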

Other observations

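CapZ caps filament ends as a dimer of an α and a β subunit, and the share of Capzb among its transcripts was lower in knockout-labelled than in wild-type controls. Capzb made up 41.2 ± 4.37% of the summed TPM of Capza1, Capza2 and Capzb in wild-type controls (SD, n = 5) and 25.8 ± 5.03% in controls labelled knockout (n = 5), and the ranges of these groups did not overlap. With TGF-β1 it made up 40.6 ± 5.05% in wild type (n = 4) and 30.1 ± 14.6% under the knockout label (n = 3), where the libraries were far apart. Capzb alone overlapped between the control groups, at 288 to 644 TPM in wild type and 279 to 383 TPM under the knockout label. The total of the share includes Capza1, whose level is uncertain, since 72.7% of its 50-base stretches occur in other genes. This share was chosen after its values were seen and has no test.

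Without Tmsb4x the cytoskeletal genes held 4.45 ± 0.432% of TPM in wild-type controls and 3.89 ± 0.329% with TGF-β1, whereas with it the shares were 5.11 ± 0.622% and 5.60 ± 0.181%. Under the knockout label the shares without Tmsb4x were 4.27 ± 0.851% and 4.11 ± 0.319%. All TPM shares of a library add to a fixed total, so part of any share reflects the other genes.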
